A study of Mus musculus with 2 samples.

Results

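PU.1, the product of the Spi1 gene, and 9 blood lineage regulators that act with it were followed in skin wounds of WT and PU.1-/- mice. The 10 genes are Spi1, Spib, Cebpa, Cebpb, Cebpe, Irf8, Irf4, Ikzf1, Runx1 and Gfi1. They were chosen by name for their roles, at a time when earlier results of these data were known. All 10 were found among the 24346 gene symbols measured. C57BL/6J littermate pups, 1 day old, were either WT or PU.1-/-, and received a full-thickness dorsal skin wound that was harvested 24 h later, with no other treatment described for either genotype. The methods call the wound a 1-cm incision, whereas the design text calls it excisional. The messenger RNA of each genotype was sequenced as 1 library of bulk wound tissue. The labels and methods state neither the extent of the Spi1 deletion nor the number and sex of the pups behind each library. Mice without PU.1 are known for their lack of neutrophils and macrophages, and also of mast cells and T cells, and the labels restrict the knockout to no cell type.

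Blood cell fate is set by small groups of transcription factors that bind the same enhancers and raise or silence each other. PU.1, an ETS factor that binds purine-rich DNA, opens the enhancers of macrophages, neutrophils, mast cells and B cells, and its partners steer the outcome: C/EBP factors toward neutrophils and monocytes, IRF8 and IRF4 toward monocytes, dendritic cells and B cells, and GFI1 toward neutrophils. Ikaros (Ikzf1) and RUNX1 act across most blood lineages. Several of these factors also work outside blood, C/EBP alpha and C/EBP beta in keratinocytes and fat cells and RUNX1 in hair follicles.

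Expression is given as FPKM, a fragment count scaled to the length of the transcript and the depth of the library. The scale of the FPKM values corresponded to about 1.38e+07 fragments for WT and about 1.58e+07 for PU.1-/-. These depths were worked out from the steps that single reads leave in the values and from transcript lengths. The values were scaled between libraries, so the depths need not equal the fragments each library held. For ratios, any value under 0.1 FPKM was set to 0.1, and a gene is called lower or higher in PU.1-/- where the libraries differed at least 2-fold. With 1 library per genotype no spread between animals can be measured and no p-value is given, so that every difference is one between these 2 libraries. The intervals of ratios are exact binomial (Clopper-Pearson) 95% intervals on read numbers estimated from FPKM and transcript length. They cover counting error only, and reads copied by PCR are not independent molecules. The inactive X transcript Xist was listed at 0 in WT and at 9.48 FPKM in PU.1-/-, and 4 of 4 Y-linked genes were listed at 0 in PU.1-/-. Sex and genotype therefore cannot be told apart, although none of the 10 genes lies on a sex chromosome.

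Of the 10 regulators, 5 were lower in the PU.1-/- wound (Spi1, Cebpe, Irf8, Ikzf1 and Gfi1), none was higher, and 5 were neither (Spib, Cebpa, Cebpb, Irf4 and Runx1). Over all 24346 genes, 4.34% were lower by the same rule and 2.32% were higher. Of the 8 regulators that reached 1 FPKM in WT, 4 were lower, against 4.45% lower and 1.71% higher among the 13237 genes that reached 1 FPKM in either library. The median log2 ratio of the 10 genes was -1.38, beside -0.01 over the 16298 genes that reached 0.1 FPKM. That median lies in a gap, since the 5 lower genes ranged from -4.60 to -2.48 and the other 5 from -0.28 to 0.32. In bulk tissue, fewer cells of a type and less RNA per cell cannot be told apart.

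**Figure D1:**
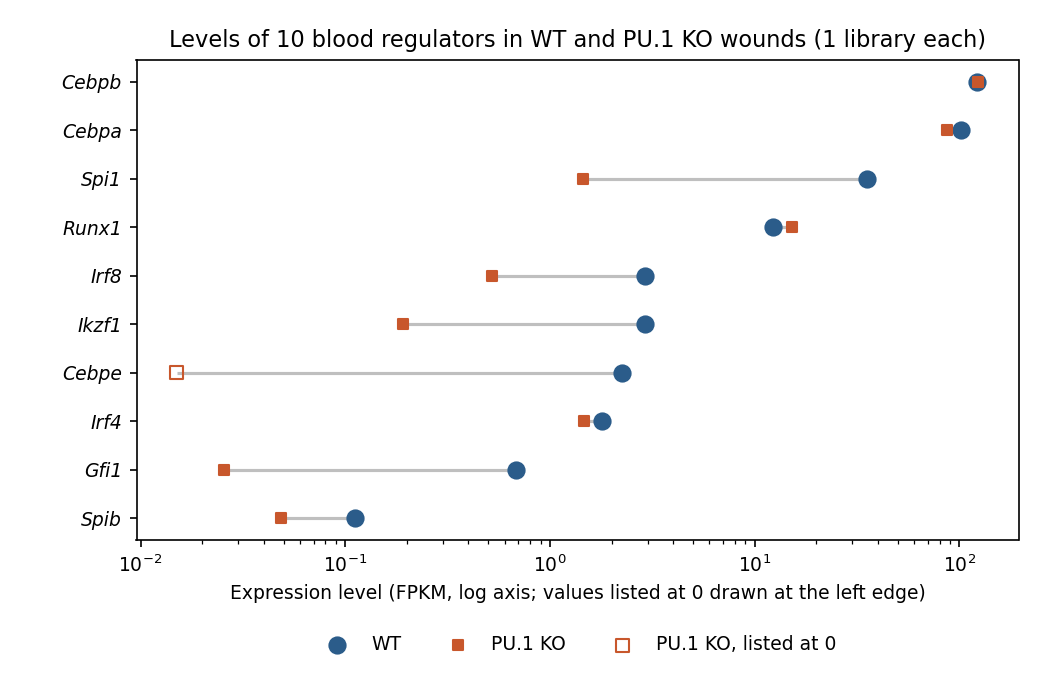
FPKM of the 10 regulators on a log axis, with WT as circles and PU.1 KO (PU.1-/-) as squares, open at the left edge where listed at 0, 1 library each. Cebpa, Cebpb and Runx1 stayed above 10 FPKM in both libraries, whereas Spi1 moved from 35.4 to 1.45 FPKM and Cebpe was listed at 0 in PU.1 KO.

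Levels of the 10 genes spanned from 0.112 to 122 FPKM in the WT wound. Cebpb stood first at 122 FPKM (exact Poisson 95% interval 117 to 128), ahead of Cebpa at 102 FPKM (98.2 to 105), Spi1 at 35.4 FPKM (33.1 to 37.7) and Runx1 at 12.2 FPKM (11.5 to 13.0). These 4 levels were separate beyond counting error. Ikzf1 and Irf8, both at 2.92 FPKM, and Cebpe at 2.25 FPKM had overlapping intervals, as did Cebpe and Irf4 at 1.79 FPKM. Gfi1 followed at 0.679 FPKM and Spib came last at 0.112 FPKM. In the PU.1-/- wound Cebpb, Cebpa and Runx1 held the first 3 places, and Spi1 at 1.45 FPKM (1.05 to 1.97) lay beside Irf4 at 1.47 FPKM (1.20 to 1.78), with overlapping intervals. Cebpa and Cebpb together made up 79.4% of the summed FPKM of the 10 genes in WT and 91.7% in PU.1-/-, while the share of Spi1 was 12.5% and 0.634%.

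Spi1, on chromosome 2 of mm10 from 91082374 to 91115759, is the targeted gene and was read first as a check of the genotype labels. It had 35.4 FPKM in WT against 1.45 FPKM in PU.1-/-, a 24.3-fold difference (17.96 to 34.2) that went in the direction of the labels. About 895 WT and 42 PU.1-/- reads lay behind these values, so that 4.12% of the WT level was still counted. Whether those reads come from an undeleted part of the gene was not tested, because the values are totals over the whole gene. Of the 12987 genes with at least 1 FPKM in WT, 179 (1.38%) had a log2 ratio as low as that of Spi1 or lower. Samsn1, Slc15a3, Fmnl1 and Evi2a were among the 5 genes whose log2 ratio lay nearest to that of Spi1, of 6955 other genes with at least 10 FPKM in WT, and all 4 were within 0.13 log2 units of it over these 2 libraries. Samsn1, a signalling adaptor of blood cells, went from 22.0 to 0.960 FPKM, and Slc15a3, a lysosomal peptide transporter, from 15.3 to 0.588 FPKM.

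Spib, a close relative of PU.1 that acts in B cells and plasmacytoid dendritic cells, was near the limit of detection. It lies on chromosome 7 from 44525995 to 44532087 and had 0.112 FPKM in WT against 0.0487 FPKM in PU.1-/-, about 4 and 2 reads. A difference between the libraries was not detectable at this depth. The markers of the cells that use Spib were as scarce: 8 B cell markers summed to 0.982 FPKM in WT against 0.430 FPKM in PU.1-/-, and 7 dendritic and Langerhans cell markers summed to 0.580 and 0.342 FPKM, with Cd207, Flt3 and Siglech listed at 0 in both.

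The C/EBP members did not behave alike. Cebpa, which drives granulocyte and monocyte progenitors and also acts in fat cells and keratinocytes, lies on chromosome 7 from 35119293 to 35121928. It had 102 FPKM in WT against 86.5 FPKM in PU.1-/-, a 1.17-fold lower level (1.12 to 1.23) that was well short of 2-fold. Its counting interval left out 1 with the reads estimated from length, about 3400 and 3327. The smallest whole read numbers that give the same ratio are 47 and 46. These follow from the ratio alone, are far fewer and are not a count of reads. With them the interval was 0.765 to 1.802 and held 1. Cebpb, on chromosome 2 from 167688915 to 167690432, is the C/EBP factor of activated macrophages and of stressed epithelium. It had 122 FPKM in WT against 124 FPKM in PU.1-/-, with a WT over PU.1-/- ratio of 0.987 (0.932 to 1.05). Both genes, the C/EBP members with the highest WT levels, thus differed by less than 2-fold. Other cell types that use them were present in both libraries: 8 keratinocyte markers summed to 10414 FPKM in WT against 12002 FPKM in PU.1-/- with none lower. The 6 adipocyte markers summed to 3696 and 3207 FPKM, but most of this sum was Fabp4, at 3408 and 3037 FPKM. Their median log2 ratio was -0.80, and Plin1 and Lep were called lower. The part of these cell types in the C/EBP levels was not tested.

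Cebpe, the C/EBP factor that switches on secondary granule genes late in neutrophil development, lies on chromosome 14 from 54710363 to 54712174. It had 2.25 FPKM in WT, about 32 reads, and was listed at 0 in PU.1-/-. A count of 0 allows up to 3 reads or 0.182 FPKM for this gene, and the WT value was 12.4 times that limit. This figure leaves out the counting error of the WT value (1.54 to 3.17 FPKM). It is therefore not a bound comparable with the intervals of the other members. Of 5 textbook targets of C/EBP epsilon, 4 were lower in PU.1-/-, and 3 of these were listed at 0. Ngp, neutrophilic granule protein, went from 311 FPKM to 0, Ltf, lactoferrin, from 37.1 FPKM to 0, and Mmp8, neutrophil collagenase, from 23.1 FPKM to 0. Camp, the cathelicidin that keratinocytes can also make, went from 77.6 to 23.9 FPKM, and Lcn2, an iron-carrier binding protein of neutrophils and injured epithelium, had 1125 and 779 FPKM and was not called. The genes without reads are those known mainly from neutrophil granules.

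Gfi1, a zinc finger repressor that neutrophil development needs, was also lower. It lies on chromosome 5 from 107716655 to 107725805 and had 0.679 FPKM in WT against 0.0257 FPKM in PU.1-/-, about 25 reads against 1. The ratio was 26.4 with a counting interval from 4.70 to 1179, so that its direction was resolved and its size was not. Its relative Gfi1b, a factor of red blood cells and platelets, had 0.0953 FPKM in WT and was listed at 0 in PU.1-/-, below the limit of 0.1 FPKM. Beside Cebpe and Gfi1, 8 of 9 neutrophil markers were lower, with a summed level of 12588 FPKM in WT against 3676 FPKM in PU.1-/-. The markers Csf3r, Retnlg, Ngp, Ltf and Mmp8 were listed at 0, and S100a8 and S100a9, which injured keratinocytes also make, held most of the remaining sum. Fewer neutrophils and a lower level of these regulators per cell cannot be told apart here.

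**Figure D2:**
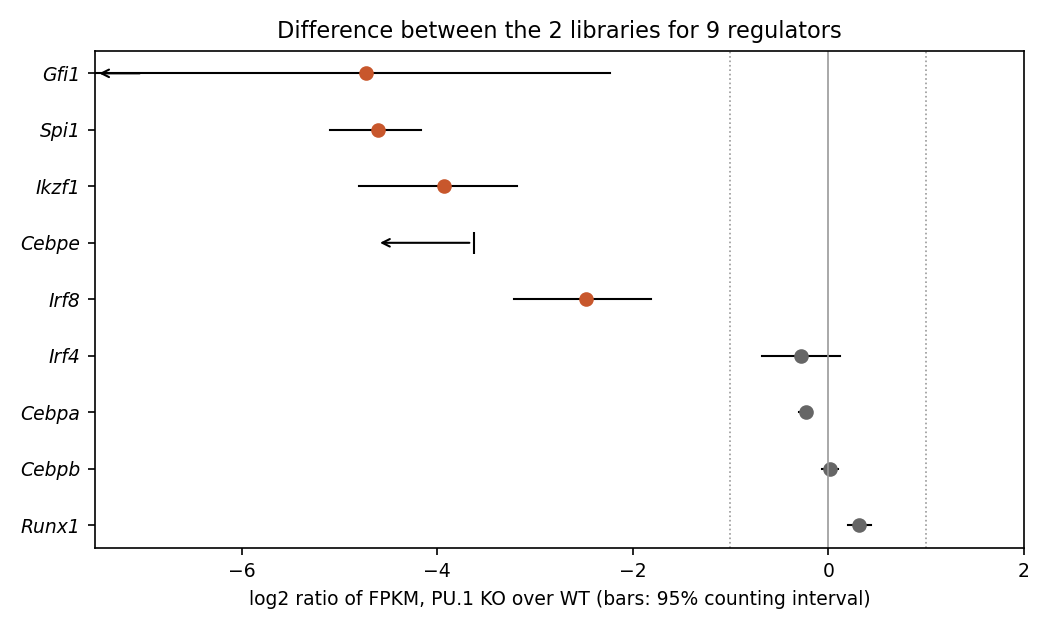
log2 ratio of PU.1 KO (PU.1-/-) over WT, from values not raised to 0.1 FPKM, for 9 of the regulators (Spib, with too few reads for a ratio, is left out), with bars for the 95% counting interval, an arrow for Cebpe from its limit of 3 reads, and dotted lines at a 2-fold difference. The 5 lower regulators lie left of the left line, and Cebpa, Cebpb, Irf4 and Runx1 lie between the lines. The bar of Gfi1 runs past the left edge. The arrow of Cebpe leaves out the counting error of its WT value.

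The interferon regulatory factors that partner PU.1 also differed from each other. Irf8, which directs monocytes and dendritic cells and restrains neutrophils, lies on chromosome 8 from 120736358 to 120756694 and had 2.92 FPKM in WT against 0.523 FPKM in PU.1-/-. This was 5.59-fold lower (3.51 to 9.29), from about 107 and 22 reads. Irf4, on chromosome 13 from 30749233 to 30766981, acts in B cells, plasma cells, T cells, some dendritic cells and melanocytes. It had 1.79 and 1.47 FPKM, a 1.21-fold difference whose interval of 0.922 to 1.60 held 1. The 2 PU.1 partners of the family thus stood on different sides of the 2-fold line, and their intervals did not overlap. Among the 10 macrophage and monocyte markers measured, 10 were lower, their sum was 538 FPKM in WT against 5.74 FPKM in PU.1-/-, and Adgre1, C1qa, C1qb, C1qc, Ms4a7 and Ccr2 were listed at 0. Their part in the Irf8 level was not tested.

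Ikzf1 encodes Ikaros, a zinc finger factor of all blood lineages and a common mark of leukocytes. It lies on chromosome 11 from 11684962 to 11772930 and had 2.92 FPKM in WT against 0.191 FPKM in PU.1-/-, a 15.3-fold difference (9.06 to 27.9) from about 200 and 15 reads. Of the members with reads in both libraries, only Spi1 and the sparsely counted Gfi1 had a larger ratio. Runx1, needed for the first blood stem cells and present in hair follicle epithelium and mesenchyme, lies on chromosome 16 from 92601466 to 92826074. It had 12.2 FPKM in WT against 15.3 FPKM in PU.1-/-, 1.25-fold higher (1.15 to 1.36) and short of the 2-fold line. Ikzf1 and Runx1 are both pan-blood regulators, yet in these libraries the former was at 6.55% of its WT level and the latter was not lower. None of their relatives was called: Ikzf5 had 8.14 and 9.58 FPKM, Runx3 had 3.87 and 4.85 FPKM, and Cbfb, the shared partner of the RUNX proteins, had 37.8 and 38.5 FPKM.

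Promoter sequence was read for the members in the RefSeq promoter table of GRCm38.p6, the assembly of mm10, as 250 bases before to 50 bases after each start. Of the 10 members, 8 were found there, with 12 start sites in all, and Spi1 and Cebpe were not. The core PU.1 motif AGGAAG, searched on both strands (CTTCCT on the reverse), occurred in 3 of the 12 and in 35.4% of the 32851 promoters of that length. The 5 shown set 3 of the lower genes beside 2 genes that were not called. Capitals mark AGGAAG or CTTCCT, and each sequence runs 5' to 3' on the strand of its gene. The first is a downstream start of Ikzf1 at chr11:11689927-11690226 on the plus strand, with 3 matches. The next are the downstream start of Gfi1 at chr5:107724294-107724593 on the minus strand with 1 match, and Irf8 at chr8:120736108-120736407 on the plus strand with none. Runx1, distal start, at chr16:92826025-92826324 on the minus strand, has 1 match, and Cebpb at chr2:167688665-167688964 on the plus strand has none.
Ikzf1: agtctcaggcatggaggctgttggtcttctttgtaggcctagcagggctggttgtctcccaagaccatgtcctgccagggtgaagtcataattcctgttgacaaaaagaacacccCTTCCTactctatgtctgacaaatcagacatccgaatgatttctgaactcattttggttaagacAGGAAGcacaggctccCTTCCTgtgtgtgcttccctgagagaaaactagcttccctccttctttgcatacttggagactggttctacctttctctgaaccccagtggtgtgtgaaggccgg
Gfi1: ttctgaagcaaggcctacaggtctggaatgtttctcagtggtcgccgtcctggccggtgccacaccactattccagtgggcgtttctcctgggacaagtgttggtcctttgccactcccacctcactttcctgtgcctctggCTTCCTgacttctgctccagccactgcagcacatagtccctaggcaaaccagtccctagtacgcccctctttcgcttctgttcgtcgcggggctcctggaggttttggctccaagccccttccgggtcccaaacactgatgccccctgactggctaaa
Irf8: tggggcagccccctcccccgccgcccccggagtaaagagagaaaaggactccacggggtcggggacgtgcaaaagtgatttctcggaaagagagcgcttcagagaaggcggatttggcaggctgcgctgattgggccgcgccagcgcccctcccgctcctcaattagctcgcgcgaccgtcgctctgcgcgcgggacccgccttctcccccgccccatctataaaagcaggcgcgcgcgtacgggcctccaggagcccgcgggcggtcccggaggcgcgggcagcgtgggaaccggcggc
Runx1: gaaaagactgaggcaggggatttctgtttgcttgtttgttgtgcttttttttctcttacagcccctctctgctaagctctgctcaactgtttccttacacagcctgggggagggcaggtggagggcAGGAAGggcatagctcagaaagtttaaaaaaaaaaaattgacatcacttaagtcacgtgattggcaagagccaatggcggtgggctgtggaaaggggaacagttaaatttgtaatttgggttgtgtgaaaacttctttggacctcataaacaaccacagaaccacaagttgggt
Cebpb: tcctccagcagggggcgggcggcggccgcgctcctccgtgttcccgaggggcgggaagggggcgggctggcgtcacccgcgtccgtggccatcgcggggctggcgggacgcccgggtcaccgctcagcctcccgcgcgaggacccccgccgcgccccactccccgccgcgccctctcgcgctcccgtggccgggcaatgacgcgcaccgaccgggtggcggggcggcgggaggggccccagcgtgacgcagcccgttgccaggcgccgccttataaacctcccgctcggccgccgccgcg
The motif was thus found at 1 start each of Ikzf1 and Gfi1, which were lower, and of Runx1, which was not called. The other start of each of these genes had no match. With 3 of 12 starts matched, against 35.4% of all promoters, the members did not carry the motif more often than other genes. The longer PU.1 site GAGGAAGT, which contains the core, occurred in none of the 12 and in 3.20% of all promoters. The ETS and IRF composite element (GGAA, any 2 bases, then GAAA) also occurred in none of the 12, against 2.72% of all. The C/EBP motif TTGCNNAA was found in the upstream Gfi1 promoter and in that of Spib (10.8% of all), the RUNX motif TGTGGT in the distal Runx1 promoter with 2 matches (16.8% of all), and the Ikaros motif TGGGAA in both Irf8 promoters (25.6% of all). All were searched on both strands. A match is a stretch of letters and not a measured binding site, and enhancers, where PU.1 mostly binds, lie outside these windows.

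Relatives of the members and regulators of other lineages were read by lists. Of 100 such regulators that are no members, 8 were lower (8%) and 1 was higher. Over all 24346 genes, the shares were 4.34% lower and 2.32% higher. Counts within single lists rest on few genes and only describe them. In the ETS family, 2 of 26 genes were lower, Spi1 and Spic. Spic, a factor of iron-recycling macrophages, went from 0.274 FPKM to 0. Its call rests on about 6 WT reads, too few to size the difference. Fli1, an ETS factor of blood and endothelium, had 7.53 and 4.78 FPKM, and Ets1 had 16.4 and 16.0 FPKM. The only well-counted lower call among ETS genes was thus that of Spi1, and the median log2 ratio of the family was -0.01. In the C/EBP family Cebpe alone of 6 was lower, and Cebpd, an acute-phase factor, had 60.9 FPKM in WT against 89.2 FPKM in PU.1-/-. Of the 9 IRF genes, Irf8 and Irf5 were lower. Irf5, a factor of inflammatory macrophages, went from 12.0 to 3.42 FPKM, 3.52-fold (2.82 to 4.39). Irf7, the interferon amplifier, lay just short of the 2-fold line at 22.5 and 11.6 FPKM, a ratio of 1.94 (1.71 to 2.21).

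**Figure D3:**
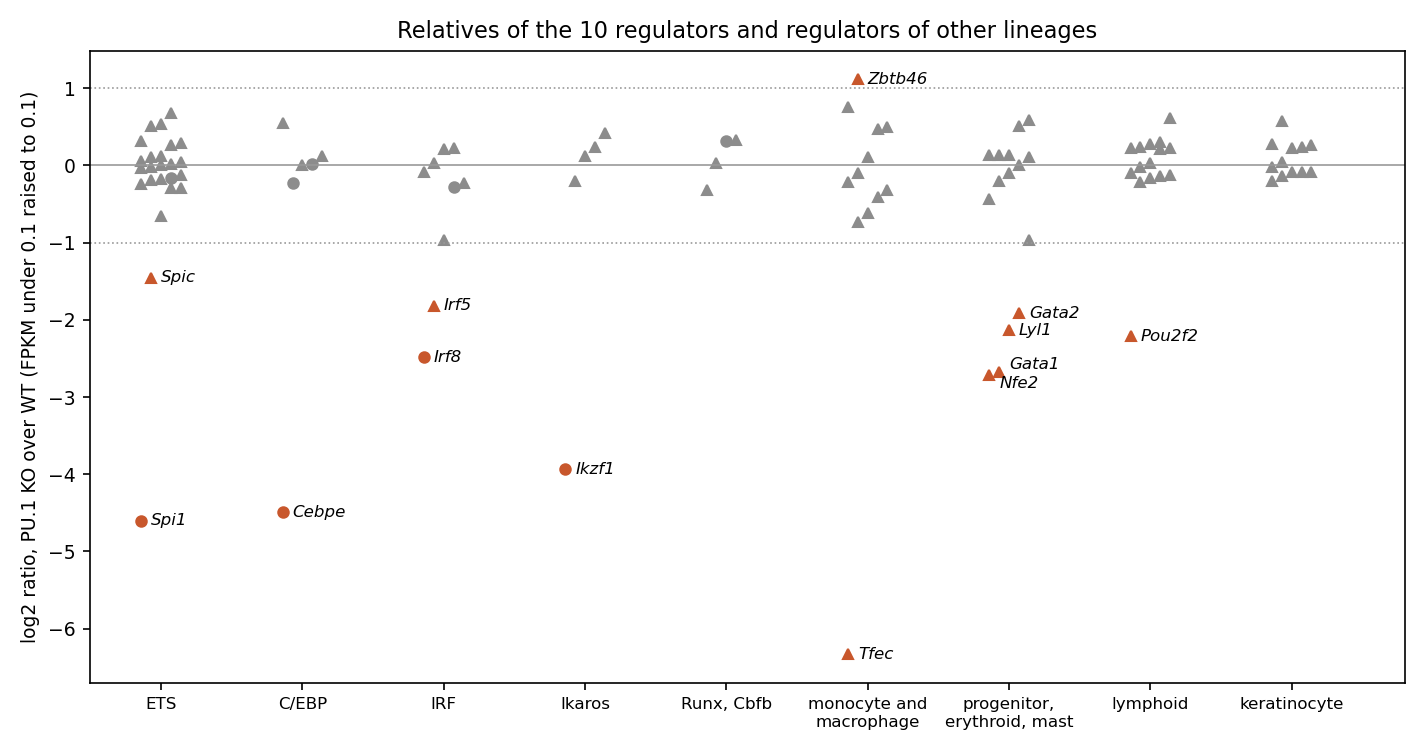
log2 ratio of PU.1 KO (PU.1-/-) over WT for the members other than Gfi1 (circles) and other regulators (triangles) by list, each list in a column of its own. Dotted lines mark a 2-fold difference and called genes are in orange. The Gfi family, with the lower member Gfi1, is not drawn, and neither are genes under 0.1 FPKM in both libraries. Most relatives lie between the lines, Tfec is lowest at -6.33, and Zbtb46 is the one regulator above the upper line.

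The lists of other lineages were mixed. Of 12 monocyte, macrophage and dendritic cell regulators, Tfec was lower and Zbtb46 was higher. Tfec, a macrophage member of the MITF family, went from 9.65 to 0.120 FPKM, about 211 reads against 3, the lowest log2 ratio (-6.33) of the 110 regulators. Zbtb46, known from dendritic cells and endothelium, went from 1.28 to 2.77 FPKM, 2.16-fold higher (1.49 to 3.16). Klf4, which acts in monocytes and also in epithelium, was not called and had 215 and 172 FPKM.

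Of 15 progenitor, erythroid, megakaryocyte and mast cell regulators, 4 were lower. Nfe2, a factor of platelets, red cells and mast cells, went from 4.95 to 0.751 FPKM, 6.59-fold (4.08 to 11.2), and Lyl1, a progenitor factor, from 2.95 to 0.671 FPKM, 4.39-fold (2.54 to 7.99). Gata2, the mast cell and progenitor factor, went from 5.06 to 1.34 FPKM, 3.76-fold (2.87 to 4.95). Gata1 had about 15 reads against 2, with a ratio of 8.61 (2.0 to 77.6). Of 9 mast cell markers, 8 were lower, with sums of 747 and 14.2 FPKM, and Mcpt4, Tpsab1, Ms4a2 and Fcer1a were listed at 0. The red blood cell markers moved the other way, from 529 to 770 FPKM in sum over 5 genes. The part of these cells in the levels of the 4 regulators was not tested.

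Lymphoid regulators were read beside them. Pou2f2, an octamer factor of B cells and macrophages, was the lower gene among 20 and went from 0.463 to 0.0619 FPKM. T cell markers were few in both wounds, with sums of 5.73 and 1.91 FPKM over 9 genes, of which 5 were lower and Cd3d, Cd3e, Cd3g and Cd2 were listed at 0 in PU.1-/-. None of 12 keratinocyte regulators was called, and Trp63, the master factor of stratified epithelium, had 61.3 and 74.2 FPKM.

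Textbook targets of PU.1 were lower nearly throughout. Of 26 listed genes, 24 were lower, none was higher and 10 were listed at 0 in PU.1-/-. By the same rule, 4.34% of all 24346 genes were lower and 2.32% were higher. This list was chosen with earlier results of these data known, so its count is not an independent check. The list summed to 623 FPKM in WT against 43.4 FPKM in PU.1-/-. The median log2 ratio was -4.89, or -5.38 with the genes at 0 set to the limit of 3 reads. Fcgr3, a low-affinity IgG receptor, had 116 FPKM in WT, and Ctss, a lysosomal protease of antigen-presenting cells, had 63.1 FPKM, and both were listed at 0 in PU.1-/-. Msr1, a scavenger receptor, went from 58.5 to 0.0500 FPKM, and Ncf1, an oxidase subunit, from 22.2 to 0.0749 FPKM, about 3 reads each. Near-complete absence was thus seen in genes of uptake, killing and antigen handling.

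Growth factor receptors and adhesion genes among the targets followed the same direction. Csf1r, the receptor that macrophages need to survive, went from 15.0 to 0.684 FPKM, 21.9-fold (15.8 to 30.7), close to the ratio of Spi1 itself. Itgam, the CD11b integrin chain, went from 24.8 to 0.378 FPKM, and Cd14, the lipopolysaccharide co-receptor, from 101 to 5.97 FPKM. Csf3r, the G-CSF receptor, went from 1.97 FPKM to 0. The smallest called differences were in Tlr2 at 13.2 and 5.26 FPKM, Tlr4 at 8.41 and 3.12 FPKM and Fes, a tyrosine kinase, at 8.86 and 3.98 FPKM. The part of other cell types in these levels was not tested. The genes not called were Csf2rb at 27.3 and 17.1 FPKM, which has a near-identical neighbour that may share its reads, and Mpo at 0.185 and 0.0805 FPKM. Csf1r, Csf3r, Cd68 and Adgre1 are also cell type markers in the lists used here, so that target and marker lists are not independent.

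**Figure D4:**
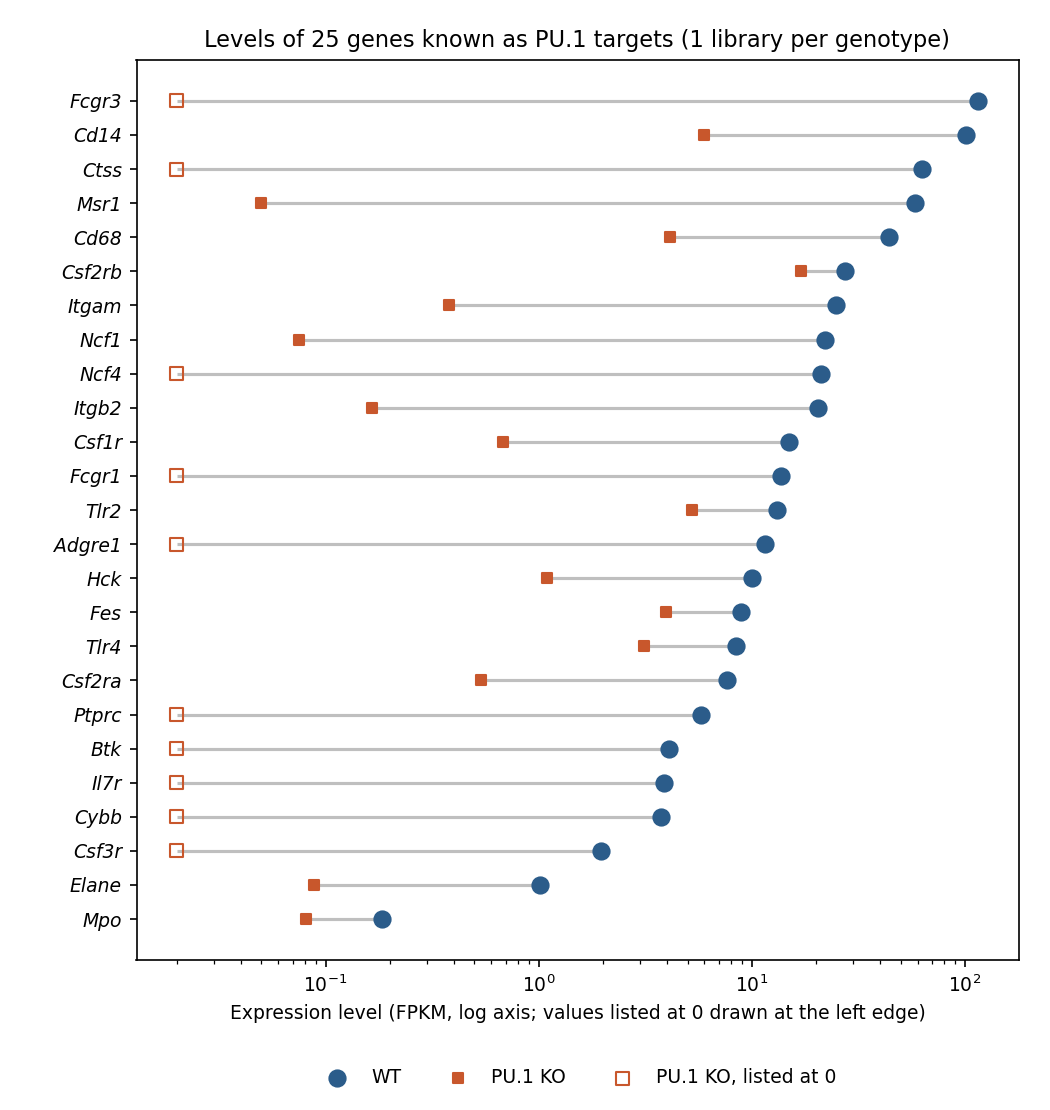
FPKM of 25 of the textbook PU.1 targets on a log axis, with WT as circles and PU.1 KO (PU.1-/-) as squares. By the calling rule, with values under 0.1 set to 0.1, 23 of these 25 are lower and Csf2rb and Mpo are not, and the 10 genes listed at 0 in PU.1 KO are open squares at the left edge.

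**Figure D5:**
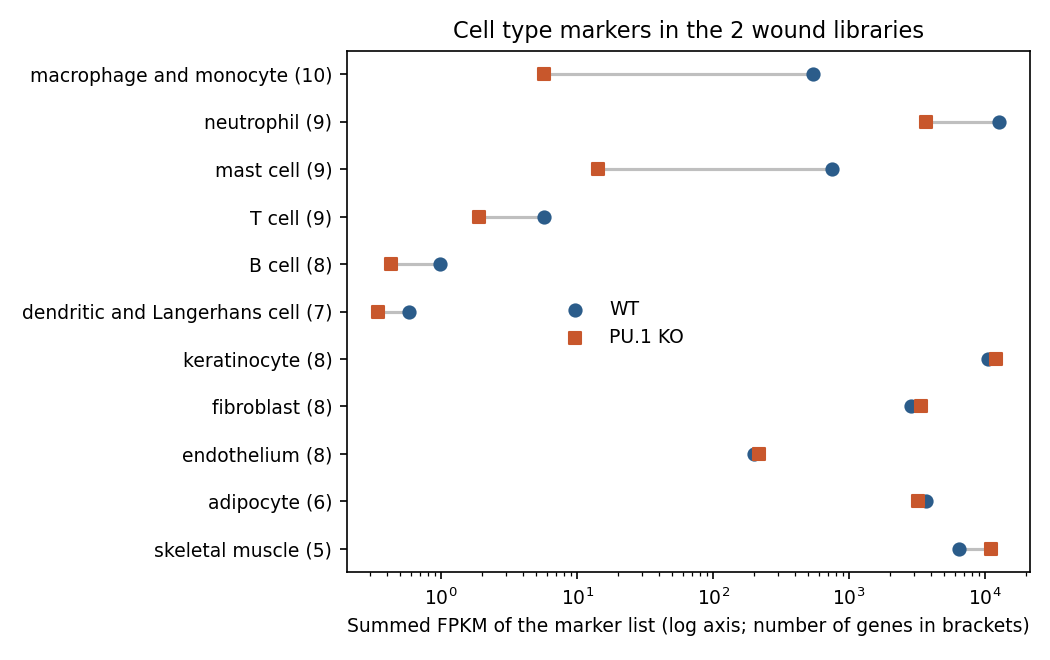
Summed FPKM of the marker list of each cell type in WT (circles) and PU.1 KO (PU.1-/-, squares), on a log axis. The macrophage sum is 538 in WT and 5.74 in PU.1 KO, the mast cell sum 747 and 14.2, and the keratinocyte sum 10414 and 12002.

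Across the cell type lists, the fibroblast and endothelial sums differed by less than 2-fold between the wounds. Fibroblast markers summed to 2831 and 3360 FPKM and endothelial markers to 199 and 219 FPKM, with no lower gene in either list and 1 higher gene, Vwf, von Willebrand factor, at 2.82 and 5.90 FPKM. Skeletal muscle markers summed to 6378 FPKM in WT against 11059 FPKM in PU.1-/-. The 5 lower regulators were thus counted in a wound whose macrophage, neutrophil and mast cell markers were lower too. Of the 5 regulators that were not called, Cebpa, Cebpb and Runx1 are also used by skin cells. Irf4 is known from lymphoid and dendritic cells and also from melanocytes, and Spib mainly from B cells and plasmacytoid dendritic cells. The contribution of each cell type to any of these levels was not tested.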

How the data were processed

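Bulk mRNA of WT and PU.1-/- skin wounds was analysed, 1 library each. Per the labels, stranded libraries were read as single-end reads of 75 bases (CASAVA 1.8.2). The authors mapped them to mm10 and deposited FPKM values from Cuffnorm 2.2.1; the labels also name TopHat2 2.1.1, Bowtie2 2.2.8, SAMtools 0.1.18 and Cuffdiff 2.2.1. The gene annotation is not given in the sources used here. Cuffnorm scales libraries to each other, and FPKM of short genes is unstable.

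Members and lists were chosen with earlier results of these data known. Values under 0.1 FPKM were raised to 0.1, and genes were called at a ratio of 2. Named genes were the members, the family genes and up to 4 genes a list with at least 1 FPKM and the largest ratios, the 5 genes nearest to Spi1, and other list genes chosen after their values were seen. Reads were estimated from FPKM and the length, less 200 nt, of the longest RefSeq-linked GENCODE transcript. One read was worth 72.5 (WT) and 63.1 (PU.1-/-) FPKM x nt, from 13082 genes. Of values up to 5.5 reads, 78.6% of 1199 in WT and 79.6% of 1164 in PU.1-/- lay within 0.1 of a whole number. Ly6g and Epb42 were not analysed here, and a few genes counted in the lists are not reported by name. Scripts were tested on simulated data, with scipy 1.17.1, numpy 2.4.6, pandas 2.3.3 and matplotlib 3.10.9 under Python 3.11.15.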

Additional observations from a re-analysis of the deposited data

How the results depend on the processing

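No paired analysis was possible because each genotype has 1 library and the labels carry no replicate numbers; for the same reason no library could be left out. The count of lower members was 5, and 4 to 6 under other floors, a pseudocount, other scalings, fold thresholds of 1.5 and 4 and a filter at 1 FPKM. With genes of at least 5 FPKM alone it was 1 of the 4 members left, and 4 of 74 regulators were lower, since fewer genes were counted. The median log2 ratio of the members, -1.38, was -1.84 with a floor of 0.01 FPKM, -0.26 with a floor of 1, -0.47 with a pseudocount of 1 and -0.11 with genes of at least 5 FPKM. The Spi1 ratio was 14.8 with the pseudocount, by its construction. No member was higher and no ratio changed sign under any alternative; Gfi1 and Spib had no difference under a floor of 1 FPKM, since both their values lie below it. Over all genes, the lower and higher counts of 1057 and 565 became 1778 and 1220 with a floor of 0.01, 463 and 164 with a floor of 1, 461 and 89 with the pseudocount, 589 and 226 at 1 FPKM, 306 and 98 at 5 FPKM, 1867 and 1410 at 1.5-fold, and 533 and 73 at 4-fold. Read numbers limit the low genes. With the smallest whole read numbers that give the same ratio, the Spi1 interval was 14.0 to 46.2. The intervals of the ratio of WT over PU.1-/- were then 0.533 to 1.20 for Runx1 and 0.765 to 1.802 for Cebpa, both holding 1. Such numbers follow from the ratio alone and are not counts of reads. They were 44 and 63 for Runx1 and 47 and 46 for Cebpa. The reads estimated from length were about 956 and 1369 for Runx1 and about 3400 and 3327 for Cebpa.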

Other observations

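Genes within 100000 nt of Spi1 on chromosome 2, looked at after the values of Spi1 were seen, were 9 in number and none was called lower. Psmc3, a proteasome subunit, had 159 FPKM in WT against 175 FPKM in PU.1-/-, Celf1, an RNA binding protein, had 29.2 and 29.5 FPKM, and Slc39a13, a zinc transporter, had 12.9 and 11.4 FPKM. Rapsn, which anchors acetylcholine receptors in muscle, had 3.38 and 6.68 FPKM, Mybpc3, a myosin binding protein of heart muscle and the nearest of the 9 to Spi1, had 0.0365 and 0.318 FPKM and was called higher, and Nr1h3, the oxysterol receptor of macrophages and other cells, had 7.29 and 5.48 FPKM. With 1 library per genotype, none of these differences was tested.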
